A study of Homo sapiens with 18 samples.

Results

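IGSF10, RIPOR2, SIX2, C11orf87, SEL1L3, PLEKHG4, MEST and MARCHF3 are 8 genes, of 78724 in the deposited count table, that share no pathway and were chosen by their measured differences between guide RNA lines of human endometrial stromal cells in earlier results of these data. The choice named no threshold, and because it used the differences between lines, those differences are given here as a description with no test. All 8 genes were among the 15558 genes that passed the filter on low counts. The question was whether each difference between lines held with and without a progestin. It held in both media for IGSF10, RIPOR2, C11orf87 and SEL1L3, and for MARCHF3 between U1U2 cells and the other lines. It did not hold for SIX2, PLEKHG4 or MEST, so the name "lasting line markers" does not describe these 3 genes.

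The cells were THESC, an established line of human endometrial stromal cells, which form the connective tissue under the lining of the uterus, and all 18 libraries came from cells that had been CRISPR-engineered and were grown in blasticidin. NT cells carried a non-targeting guide RNA and are labelled wild type, U1U2 cells carried the U1U2 guides and are labelled PGRA/B-equivalent, and promoter cells carried a promoter guide and are labelled PGRB-dominant. Each line was moved to low-serum medium and then kept for 72 hours, in charcoal-stripped serum, with vehicle (0.01% ethanol) or with 1 µM medroxyprogesterone acetate (MPA), a synthetic progestin, in 3 libraries per group. Per its title, the series concerns activation of an enhancer of PGR, the gene of the progesterone receptor. The labels do not say how often each line was derived or whether it is 1 clone, so an effect of a guide and a difference that arose while a line was made cannot be told apart. Nor do they state that each replicate was a culture of its own, so the p-values speak to the spread among these libraries, which may be technical.

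PGR, the targeted gene, was counted at 120, 153 and 147 CPM (counts scaled to library size with TMM factors) in NT vehicle, at 674, 531 and 584 CPM in U1U2 vehicle and at 433, 475 and 395 CPM in promoter vehicle. It was higher than in NT vehicle by 2.09 ± 0.13 (log2, SE) in U1U2 cells (adjusted p = 7.21e-08) and by 1.63 ± 0.13 in promoter cells (adjusted p = 1.57e-06), with all 3 libraries of each above all 3 of NT cells. With MPA, PGR averaged 84.5 CPM in NT, 260 in U1U2 and 282 in promoter cells, and the libraries of the last 2 overlapped. Its log2 change from vehicle to MPA was −0.73 in NT, −1.20 in U1U2 and −0.62 in promoter cells. Gene counts do not separate the PGRA and PGRB transcripts. Libraries held 11.9 to 33.4 M counts (median 22.9 M), and NT vehicle replicate 1 was the shallowest. The 3 NT vehicle libraries held 11.9 to 20.8 M counts with 2.51% to 3.03% mitochondrial reads, against 15.4 to 33.4 M and 1.63% to 2.63% in the other 15. All 13 stromal markers were detected (VIM at 1162 to 1926 CPM), while PECAM1, CDH5 and KDR of endothelium and CD3E, CD14 and CD68 of leukocytes had at most 5 counts in any library. Other markers on those lists were counted: VWF at up to 11 counts, TEK at 673 to 2675 and PTPRC at 33 to 143. Of the 7 epithelial markers, KRT18 had 105 to 460 counts, MUC1 48 to 166, KRT8 35 to 152 and EPCAM 3 to 34, with at most 10 for KRT7, CDH1 and PAX8. The labels give all libraries 1 batch, so no value could be repeated within batches.

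Progesterone acts on stromal cells through its receptor, a transcription factor that binds DNA once it holds the hormone, and it drives their change into decidual cells, which support early pregnancy. MPA binds this receptor and also the glucocorticoid and androgen receptors. The 8 genes have separate roles. IGSF10 encodes a large secreted protein of the immunoglobulin superfamily, known for a part in the migration of hormone-releasing neurons. RIPOR2 encodes a partner and inhibitor of the small GTPase RHOA that shapes cell polarity and migration. SIX2 is a homeobox transcription factor best known for holding kidney progenitors undifferentiated, and it works with EYA and DACH proteins. C11orf87 encodes a small membrane protein of neurons. SEL1L3 is a membrane protein related to SEL1L, the adaptor of endoplasmic reticulum-associated degradation. PLEKHG4 is an exchange factor that loads small GTPases with GTP, MEST is an imprinted gene read from the paternal copy that encodes an enzyme-like protein of the endoplasmic reticulum, and MARCHF3 is a membrane-bound ubiquitin ligase of endosomes.

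The genes lie on 8 chromosomes (GENCODE 29, GRCh38). IGSF10 spans chr3:151425384-151458709, RIPOR2 chr6:24804281-25042170, SIX2 chr2:45005161-45009430, SEL1L3 chr4:25747427-25863760 and MARCHF3 chr5:126867714-127030808, all on the minus strand. C11orf87 spans chr11:109422120-109429114, PLEKHG4 chr16:67277510-67289499 and MEST chr7:130486171-130506465, all on the plus strand. C11orf87 is the member on the chromosome of PGR, and 8.29 Mb separate the 2 genes. Per kilobase of exon, the mean level over all libraries was highest for MEST, at 14.2 CPM per kb, followed by SEL1L3 at 6.17 and C11orf87 at 3.30. SIX2 at 1.48, MARCHF3 at 1.03, IGSF10 at 0.512, PLEKHG4 at 0.511 and RIPOR2 at 0.450 CPM per kb were low. The lowest counts in a library were 16 for SIX2, 17 for RIPOR2, 27 for PLEKHG4 and 33 for IGSF10, and these 4 had the widest standard errors. The errors did not follow the counts alone. For the log2 change from vehicle to MPA in promoter cells, the SE was 0.24 for PLEKHG4 and 0.18 for SIX2.

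RefSeq promoter windows (GRCh38.p14, 250 bases before to 50 after a start) were matched for 7 of the 8 genes, all but C11orf87, with 19 windows in all. The upstream stretches of RIPOR2, SIX2 and MEST are shown because these 3 genes had the largest MPA responses among the 8 in promoter cells and because a RefSeq start lay within 50 bases of the gene's start in GENCODE. Each stretch ends before the gene, reads 5′ to 3′ on the gene's strand, and has matches to GGGCGG, the GC box bound by SP-family factors, on either strand in capitals. They lie at chr6:25042171-25042418 (minus strand, 248 bases), chr2:45009453-45009702 (minus strand, 250 bases) and chr7:130485925-130486170 (plus strand, 246 bases).
RIPOR2: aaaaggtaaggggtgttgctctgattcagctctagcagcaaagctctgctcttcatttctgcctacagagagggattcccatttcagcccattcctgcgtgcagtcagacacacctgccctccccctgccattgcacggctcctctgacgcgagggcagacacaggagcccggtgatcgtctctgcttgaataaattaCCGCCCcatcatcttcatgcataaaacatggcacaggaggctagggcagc
SIX2: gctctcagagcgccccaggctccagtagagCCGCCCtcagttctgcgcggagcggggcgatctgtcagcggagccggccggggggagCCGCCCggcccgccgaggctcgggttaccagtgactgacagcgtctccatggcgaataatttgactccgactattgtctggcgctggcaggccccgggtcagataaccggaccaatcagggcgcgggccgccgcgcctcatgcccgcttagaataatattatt
MEST: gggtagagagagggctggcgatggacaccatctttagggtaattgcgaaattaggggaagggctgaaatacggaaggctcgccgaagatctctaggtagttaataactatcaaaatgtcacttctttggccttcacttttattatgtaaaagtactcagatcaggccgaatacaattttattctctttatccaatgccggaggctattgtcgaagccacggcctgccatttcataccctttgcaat
In the windows of these stretches, SIX2 held 2 GC boxes and 64% G and C, RIPOR2 1 GC box and 55.3%, and MEST none and 49%. The median was 58.7% over 35116 windows. Other windows of the same genes differed. A further RIPOR2 window held 3 GC boxes and 75%, and 2 overlapping MEST windows held 2 each, with 68.7% and 70.3%. The remaining windows of RIPOR2 and MEST held none. Over the 19 windows of the 7 genes, 10 held GGGCGG, against 45% of all windows. The core ACANNNTGT of the palindrome that steroid receptors bind was in 0 of the 19 windows and in 5.37% of all windows. The half-site AGAACA, which shares its last letters with that core, was in 2 of 19 (1 window each of IGSF10 and MEST) and in 14.8% of all, and TATAAA was in 1 of 19 (RIPOR2) and in 11.5%. All motifs were searched on both strands. Which start each cell used was not measured, and a match in these windows is a description of letters only.

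**Figure D1:**
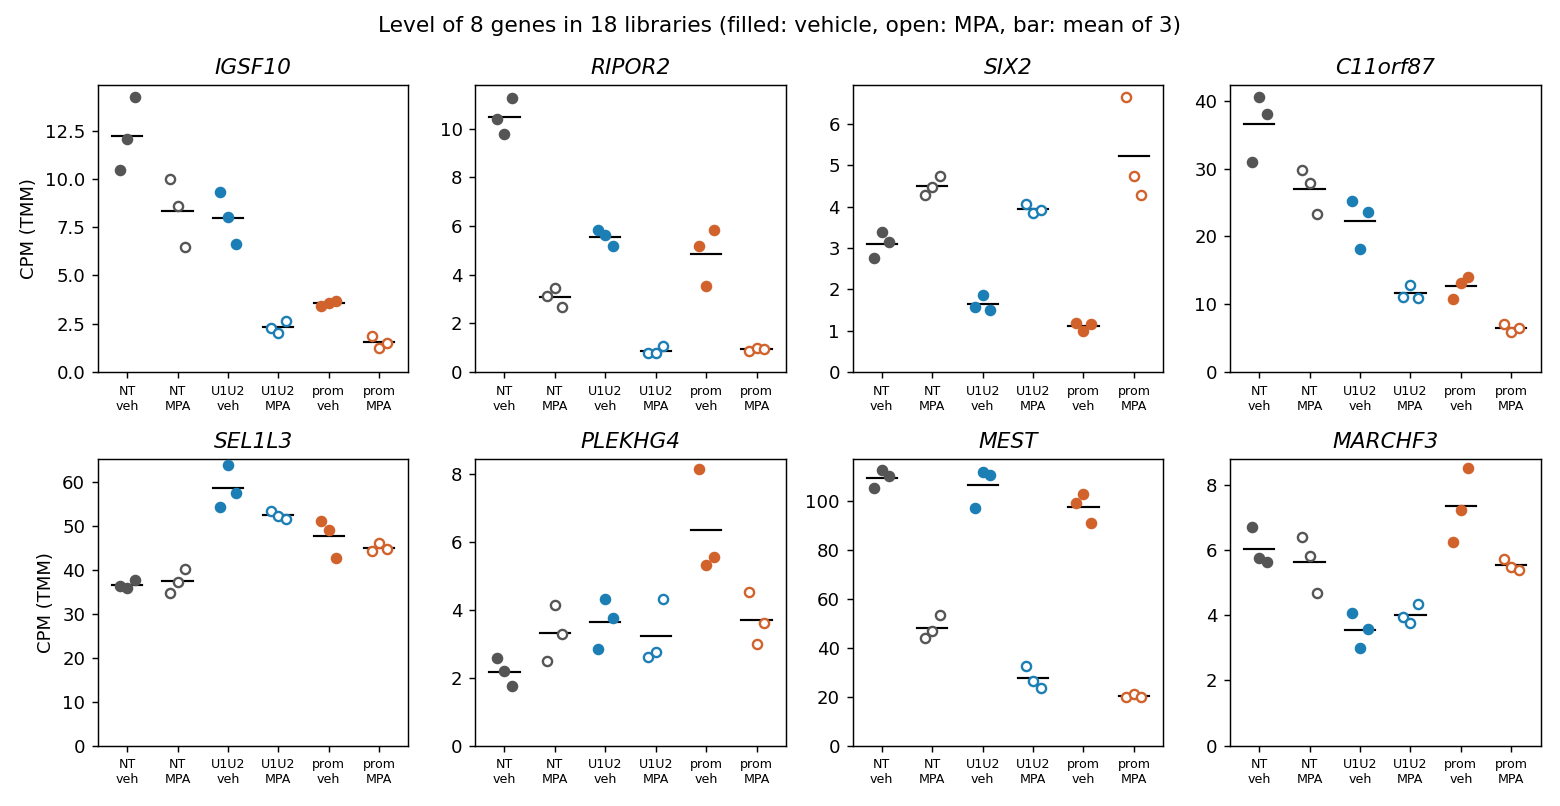
CPM (counts scaled to library size, linear axis from 0) of each gene in each of the 18 libraries; filled points are vehicle, open points MPA, grey NT, blue U1U2, orange promoter cells, and bars are means of 3 libraries. IGSF10, RIPOR2 and C11orf87 are highest in NT vehicle, SIX2 is higher in every MPA library than in any vehicle library, and MEST falls from 91 to 113 CPM in vehicle to 19.9 to 53.6 CPM in MPA.

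IGSF10 and C11orf87 were lower in both lines with activated PGR than in NT cells, in either medium, and lowest in promoter cells. For IGSF10 the libraries held 10.5, 12.1 and 14.2 CPM in NT vehicle, 9.31, 8.03 and 6.65 in U1U2 vehicle and 3.39, 3.58 and 3.70 in promoter vehicle. With MPA they held 10.0, 8.60 and 6.47 CPM in NT cells, 2.30, 2.04 and 2.66 in U1U2 cells and 1.85, 1.26 and 1.49 in promoter cells. The 3 lines did not overlap in either medium, and over the 6 groups the means ran from 12.2 ± 1.89 CPM (SD, n = 3) in NT vehicle to 1.53 ± 0.30 in promoter MPA. NT MPA and U1U2 vehicle were the neighbours in that order whose libraries overlapped. Between U1U2 and NT cells the log2 difference was −0.62 (95% interval −0.99 to −0.25) in vehicle and −1.84 (−2.25 to −1.43) in MPA. Between promoter and NT cells it was −1.78 (−2.18 to −1.39) in vehicle and −2.45 (−2.88 to −2.03) in MPA, a 5.48-fold lower level. These 2 comparisons share the NT libraries. In bulk RNA, fewer cells that express a gene and less of its RNA per cell cannot be told apart.

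C11orf87 followed the same order of groups, at a higher level per kilobase. It was counted at 31.0, 40.6 and 38.0 CPM in NT vehicle, 25.2, 18.1 and 23.7 in U1U2 vehicle and 10.7, 13.2 and 13.9 in promoter vehicle. With MPA it was counted at 29.8, 27.9 and 23.3 CPM in NT cells, 11.1, 12.8 and 10.9 in U1U2 cells and 7.12, 5.97 and 6.46 in promoter cells. No line overlapped another in the same medium. The difference of promoter from U1U2 cells was −0.82 (−1.13 to −0.51) in vehicle and −0.83 (−1.15 to −0.50) in MPA. The difference of U1U2 from NT cells was −0.72 (−1.02 to −0.41) and −1.22 (−1.54 to −0.91), and that of promoter from NT cells −1.54 (−1.85 to −1.22) and −2.05 (−2.38 to −1.73). In the order of means, from 36.5 ± 4.98 CPM in NT vehicle to 6.52 ± 0.58 in promoter MPA, the libraries of NT MPA overlapped those of U1U2 vehicle and those of promoter vehicle overlapped those of U1U2 MPA.

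RIPOR2, the inhibitor of RHOA, was lower in both lines with activated PGR in either medium and, unlike the first pair, was at a like level in U1U2 and promoter cells. Vehicle libraries held 10.4, 9.77 and 11.3 CPM in NT, 5.85, 5.62 and 5.18 in U1U2 and 5.19, 3.51 and 5.84 in promoter cells. MPA libraries held 3.12, 3.45 and 2.68 CPM in NT, 0.797, 0.769 and 1.06 in U1U2 and 0.866, 0.989 and 0.948 in promoter cells. The activated lines overlapped each other in each medium and overlapped NT cells in neither. The difference of U1U2 from NT cells was −0.92 (−1.26 to −0.57) in vehicle and −1.81 (−2.24 to −1.37) in MPA, and that of promoter from NT cells −1.09 (−1.44 to −0.74) and −1.73 (−2.16 to −1.30). Promoter and U1U2 cells differed by −0.17 (−0.52 to 0.18) and 0.08 (−0.41 to 0.57), intervals that include 0 but are wide. The U1U2 MPA libraries held 17, 17 and 31 counts of RIPOR2.

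SEL1L3 was the member with higher levels in both activated lines in both media. It was counted at 36.4, 35.7 and 37.6 CPM in NT vehicle, 54.1, 63.7 and 57.4 in U1U2 vehicle and 51.0, 49.1 and 42.6 in promoter vehicle. With MPA it was counted at 34.7, 37.3 and 40.2 CPM in NT cells, 53.4, 52.1 and 51.4 in U1U2 cells and 44.1, 46.0 and 44.6 in promoter cells. Every library of either activated line lay above every NT library, and U1U2 cells above promoter cells in each medium. These were small differences, of 0.68 (0.50 to 0.86) and 0.49 (0.31 to 0.66) for U1U2 against NT cells in vehicle and MPA, and of 0.38 (0.20 to 0.56) and 0.27 (0.09 to 0.45) for promoter against NT cells. SMIM20, which overlaps the start of SEL1L3 on the opposite strand, was called in none of the 6 comparisons of lines. Its log2 differences ran from −0.21 to −0.02 and its unadjusted p-values from 0.117 to 0.870.

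MARCHF3 was low in U1U2 cells in both media, and promoter cells did not stand apart from NT cells. Vehicle libraries held 6.69, 5.76 and 5.63 CPM in NT, 4.05, 3.0 and 3.58 in U1U2 and 6.25, 7.22 and 8.52 in promoter cells. MPA libraries held 6.41, 5.82 and 4.68 CPM in NT, 3.94, 3.76 and 4.33 in U1U2 and 5.72, 5.48 and 5.37 in promoter cells. All 6 U1U2 libraries lay below all 12 libraries of the other lines. The difference of U1U2 from NT cells was −0.77 (−1.11 to −0.43) in vehicle and −0.50 (−0.83 to −0.16) in MPA. Promoter cells were above U1U2 cells by 1.06 (0.73 to 1.39) and 0.46 (0.13 to 0.79), and from NT cells they differed by 0.29 (−0.04 to 0.62) and −0.04 (−0.36 to 0.29), with overlapping libraries.

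SIX2 differed between lines in vehicle, and in MPA the lines lay closer to each other. In vehicle it was counted at 2.76, 3.38 and 3.14 CPM in NT, 1.57, 1.87 and 1.5 in U1U2 and 1.19, 1.00 and 1.17 in promoter cells, with no overlap. In MPA it was counted at 4.29, 4.49 and 4.75 CPM in NT, 4.08, 3.85 and 3.92 in U1U2 and 6.67, 4.76 and 4.29 in promoter cells. Every MPA library lay above every vehicle library of any line. Promoter cells lay below NT cells by −1.45 (−1.86 to −1.05) in vehicle and differed from them by 0.22 (−0.12 to 0.56) in MPA, with overlapping libraries. Without promoter MPA replicate 1, the highest library, the latter was 0.02. Promoter cells lay above U1U2 cells in MPA by 0.41 (0.07 to 0.75), with separate libraries, and by 0.20 without that library. U1U2 cells differed from NT cells by −0.91 (−1.30 to −0.53) in vehicle and by −0.19 (−0.54 to 0.16) in MPA, where their libraries still lay just below. The order of the lines in vehicle, NT over U1U2 over promoter cells, was therefore not kept in MPA.

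PLEKHG4 differed in the other direction and likewise in vehicle. It was counted at 2.59, 2.19 and 1.77 CPM in NT vehicle, 2.86, 4.31 and 3.77 in U1U2 vehicle and 8.14, 5.33 and 5.57 in promoter vehicle, without overlap. In MPA the libraries held 2.51, 4.14 and 3.30 CPM in NT, 2.62, 2.76 and 4.33 in U1U2 and 4.52, 3.01 and 3.61 in promoter cells, and all 3 lines overlapped. Promoter cells were above NT cells by 1.56 (0.99 to 2.12) in vehicle, a 2.94-fold difference, and by 0.15 (−0.38 to 0.68) in MPA. U1U2 cells were above NT cells by 0.76 (0.18 to 1.33) in vehicle and differed from them by −0.03 (−0.57 to 0.51) in MPA. KCTD19, on the opposite strand at PLEKHG4, had 1 to 17 counts per library.

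MEST, the imprinted gene, showed the reverse of SIX2 and PLEKHG4, with like levels in vehicle and separate lines in MPA. Vehicle libraries held 105, 113 and 110 CPM in NT, 97.3, 112 and 111 in U1U2 and 99.3, 103 and 91.0 in promoter cells. MPA libraries held 43.9, 47.0 and 53.6 CPM in NT, 32.5, 26.4 and 23.7 in U1U2 and 20.0, 21.2 and 19.9 in promoter cells, so the 3 lines did not overlap. In vehicle U1U2 cells differed from NT cells by −0.04 (−0.25 to 0.18) and promoter cells by −0.16 (−0.38 to 0.05). In MPA they lay below NT cells by −0.81 (−1.03 to −0.58) and −1.24 (−1.46 to −1.01). COPG2, which overlaps MEST on the opposite strand at 83.8 CPM, was called in none of the 12 comparisons, and MESTIT1, antisense at the MEST start, had 1 to 29 counts per library. The counter's strand setting is not given in the sources used here, so reads of these overlapping genes cannot be told apart with certainty.

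**Figure D2:**
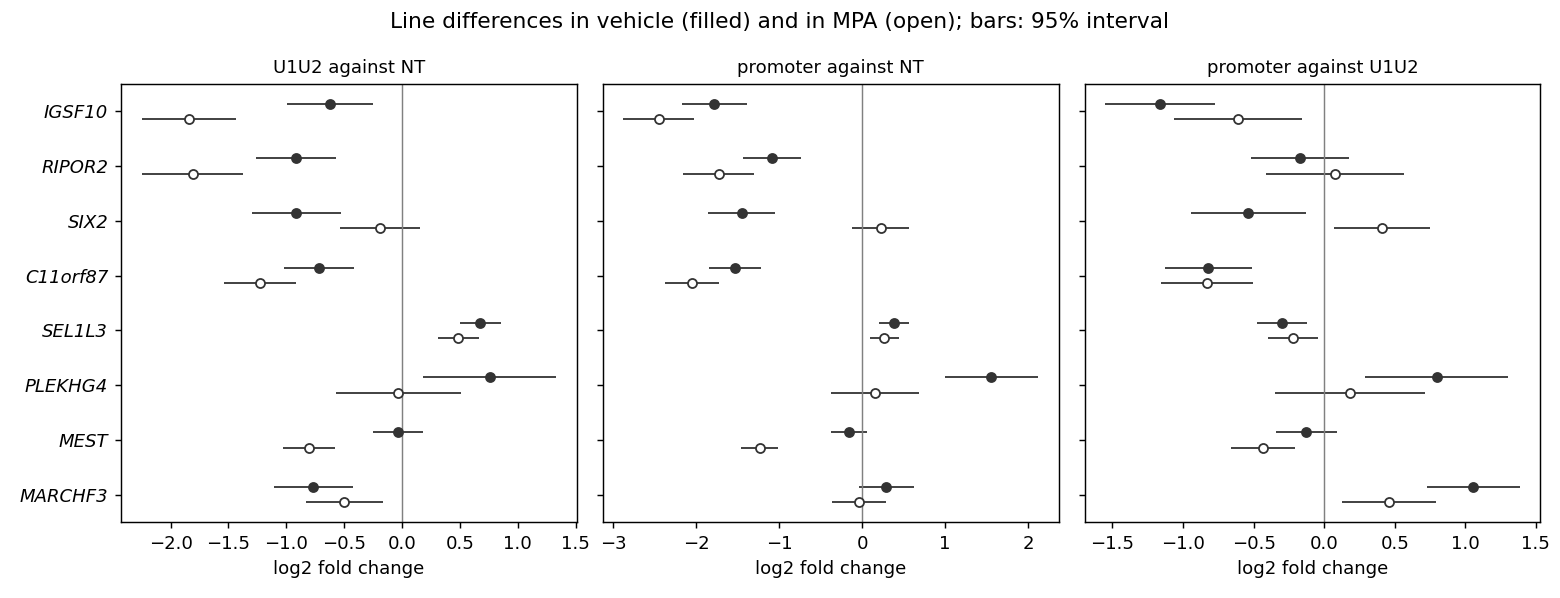
Log2 difference between lines for each gene in vehicle (filled) and MPA (open), in 3 panels with their own axes, with 95% intervals from the edgeR fit. Values of IGSF10, C11orf87 and RIPOR2 stay below 0 against NT cells in both media, those of SEL1L3 stay above 0, those of SIX2 and PLEKHG4 against NT cells have intervals that include 0 in MPA and not in vehicle, and those of MEST leave 0 in MPA.

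Counted over the 8 genes, 7 had libraries of U1U2 and NT cells that did not overlap in vehicle (16.2% of all tested genes) and 7 in MPA (11.9%). Between promoter and NT cells the numbers were 7 in vehicle (21%) and 5 in MPA (23.1%), and between promoter and U1U2 cells 6 in vehicle (13.1%) and 6 in MPA (9.64%). Because the genes were picked for these differences, nothing is read from the counts. Non-overlap does not measure size: MEST was counted as separate between promoter and NT cells in vehicle at a log2 difference of −0.16.

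The response to MPA was not named in the choice, and it was tested in each line. These responses share their libraries, vehicle and MPA, with the line differences that chose the genes. Their p-values are therefore not independent of the choice. The counts and medians of the 8 genes below are a description, and nothing is read from them. The difference between 2 lines' responses is their line difference in MPA minus that in vehicle, both of which the choice used. For the 8 genes it is therefore given as a description, with its 95% interval. Where its adjusted p-values are counted below, they are no valid test of these genes, and nothing is read from them. In NT cells 2 of the 8 genes changed, both downwards, where 5.93% of all tested genes changed and 3.48% fell. In U1U2 cells 5 changed, 1 up and 4 down, where 11.7% of all tested genes changed, 5.44% up and 6.22% down. In promoter cells 6 changed, 1 up and 5 down, where 15% of all tested genes changed, 6.63% up and 8.4% down. The median log2 response of the 8 genes was −0.26 in NT, −0.56 in U1U2 and −0.87 in promoter cells, beside 0.02, 0.03 and −0.0034 over all tested genes. RIPOR2 and MEST fell in all 3 lines, IGSF10 and C11orf87 fell and SIX2 rose in both activated lines, PLEKHG4 fell in promoter cells, and SEL1L3 and MARCHF3 passed the test in no line. Adjusted p-values are from edgeR's quasi-likelihood test over 15558 genes (Benjamini-Hochberg).

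RIPOR2 fell with MPA in each line. Its log2 response was −1.75 ± 0.17 (SE) in NT cells (adjusted p = 2.48e-06), −2.64 ± 0.20 in U1U2 (3.14e-08) and −2.39 ± 0.20 in promoter cells (7.21e-08), with no overlap of vehicle and MPA libraries in any line. This left a level 6.23-fold lower in U1U2 cells. The response differed from that in NT cells by −0.89 (−1.45 to −0.34) in U1U2 cells and by −0.65 (−1.20 to −0.09) in promoter cells. RIPOR2 is also known from lymphocytes. The summed level of the 5 leukocyte markers moved with MPA, from 4.35 to 5.57 CPM in NT vehicle to 1.83 to 2.41 in NT MPA, from 3.59 to 4.24 to 1.59 to 1.98 in U1U2 cells and from 4.06 to 4.64 to 1.92 to 2.36 in promoter cells. PTPRC alone made up nearly all of it, with 33 to 143 counts, while CD3E was at 0 in every library and CD68 and CD14 had at most 4 and 5 counts. The 5 endothelial markers also summed lower with MPA (44.1 to 46.4 against 55.2 to 59.0 CPM in NT cells, 45.4 to 50.6 against 66.8 to 74.6 in U1U2 cells and 42.3 to 43.4 against 72.6 to 74.9 in promoter cells), nearly all of it TEK. The part of these markers in the responses was not tested.

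MEST fell in each line as well, with a log2 response of −1.18 ± 0.11 in NT cells (adjusted p = 7.18e-07), −1.96 ± 0.11 in U1U2 (7.18e-10) and −2.26 ± 0.11 in promoter cells (8.43e-11), a 4.79-fold lower level in the last. The response differed from that in NT cells by −1.08 (−1.39 to −0.76) in promoter cells and by −0.77 (−1.08 to −0.46) in U1U2 cells, and between promoter and U1U2 cells by −0.30 (−0.62 to 0.01).

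SIX2 was the member that rose with MPA. It rose by 1.25 ± 0.17 in U1U2 cells (adjusted p = 5.98e-05) and by 2.20 ± 0.18 in promoter cells (adjusted p = 7.21e-08), a 4.6-fold higher level, while in NT cells the value was 0.53 ± 0.17 (adjusted p = 0.0944). The response differed from that in NT cells by 1.67 (1.15 to 2.20) in promoter cells and by 0.73 (0.21 to 1.24) in U1U2 cells, and between promoter and U1U2 cells by 0.95 (0.42 to 1.48).

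IGSF10 fell by 1.76 ± 0.19 in U1U2 cells (adjusted p = 3.44e-06) and by 1.21 ± 0.21 in promoter cells (adjusted p = 0.000398), and in NT cells the value was −0.54 ± 0.18 (adjusted p = 0.0916, with separate libraries). C11orf87 fell by 0.94 ± 0.15 in U1U2 cells (adjusted p = 0.000201) and by 0.95 ± 0.15 in promoter cells (adjusted p = 0.000224), beside −0.43 ± 0.14 in NT cells (adjusted p = 0.097). So both genes that were ordered alike between lines also moved the same way with MPA in the activated lines. Their responses differed from those in NT cells by −1.22 (−1.77 to −0.67) and −0.67 (−1.24 to −0.09) for IGSF10 in U1U2 and promoter cells. For C11orf87 the differences were −0.51 (−0.94 to −0.08) and −0.52 (−0.96 to −0.08). The NT response of IGSF10 passed with DESeq2 (adjusted p = 0.0469), and the NT responses of IGSF10 and C11orf87 also passed without NT MPA replicate 1 (0.0428) and without NT vehicle replicate 1 (0.0395), in that order.

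PLEKHG4 fell in promoter cells by 0.78 ± 0.24 (adjusted p = 0.0361), and this call was lost without promoter vehicle replicate 1 (−0.55, adjusted p = 0.235), promoter MPA replicate 2 (0.166) or promoter MPA replicate 3 (0.108). Promoter vehicle, the group with the highest level of PLEKHG4, also entered the line differences that chose the gene. A fall from it is therefore not independent of the choice. In NT cells the value was 0.62 ± 0.28 (adjusted p = 0.26) and in U1U2 cells −0.17 ± 0.25 (adjusted p = 0.746). The response in promoter cells differed from that in NT cells by −1.40 (−2.18 to −0.63). SEL1L3 stayed within narrow bounds, at 0.03 (−0.15 to 0.21) in NT, −0.16 (−0.34 to 0.02) in U1U2 and −0.08 (−0.26 to 0.10) in promoter cells (adjusted p = 0.902, 0.264 and 0.585). MARCHF3 was at −0.08 (−0.42 to 0.25), 0.19 (−0.15 to 0.53) and −0.41 (−0.73 to −0.09), with adjusted p = 0.84, 0.538 and 0.0853.

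**Figure D3:**
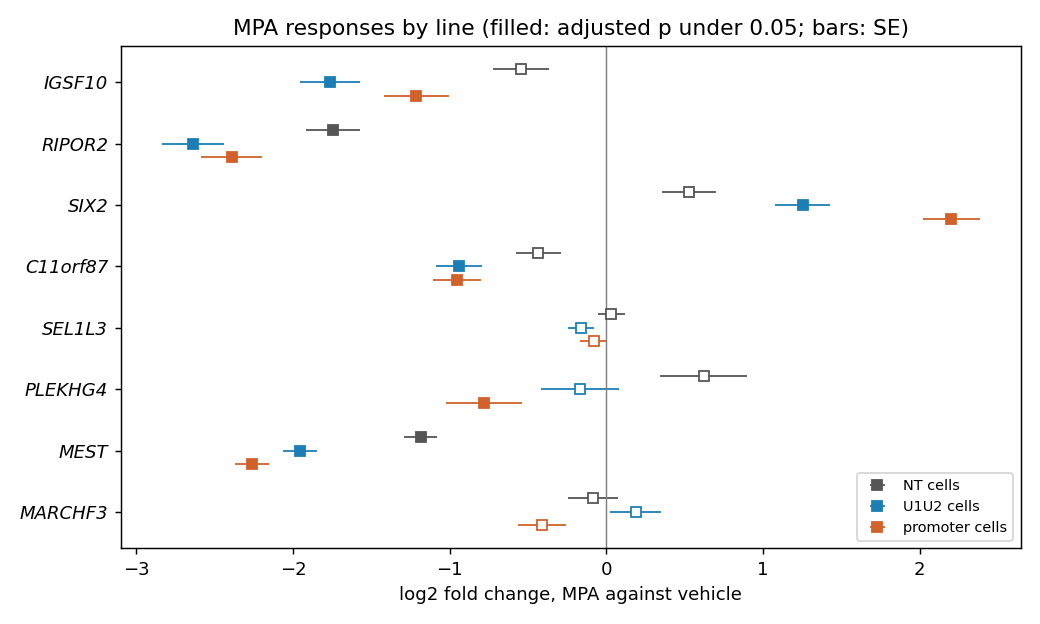
Log2 response to MPA (MPA against vehicle, 3 libraries against 3) of each gene in NT, U1U2 and promoter cells, with standard errors; filled symbols have an adjusted p under 0.05. RIPOR2 and MEST fall in all 3 lines, SIX2 is the one gene with a rise that passed the test, and SEL1L3 lies within 0.17 of 0 in each line.

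In edgeR's fit over all genes, the difference of MPA responses had an adjusted p under 0.05 for 1 of the 8 genes between U1U2 and NT cells (MEST; 0.219% of all tested genes), for 2 between promoter and NT cells (SIX2 and MEST; 1.56%) and for 0 between promoter and U1U2 cells (0.0129%). In the last comparison 2 of the 8, SIX2 and MARCHF3, had an unadjusted p under 0.05, and DESeq2 called 0. Because the line differences behind these values chose the genes, nothing is read from the counts.

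To see how far a line difference reached along the chromosome, the 120 tested genes starting within 1 Mb of a member were compared between lines. Few were called: 0, 5 and 1 in vehicle (U1U2 against NT, promoter against NT and promoter against U1U2 cells) and 0, 2 and 1 in MPA, which is 0% to 4.17% of the neighbours beside 1.14%, 6.75%, 0.784%, 1.72%, 4.15% and 0.328% of all tested genes. For the 2 counts of 0 from the edgeR test, 16 and 8 neighbours had an unadjusted p under 0.05. These are 13.3% and 6.67% of the neighbours, beside 16.2% and 9.01% of all tested genes. DESeq2 called 1 and 0 neighbours in the same 2 comparisons. None of the 10 neighbours of IGSF10 or the 10 of SEL1L3 was called in any comparison of lines.

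The called neighbours did not always go the way of the member. Next to RIPOR2, CARMIL1, a regulator of actin capping, was higher in promoter than in NT cells in MPA by 0.88 ± 0.10 (adjusted p = 2.58e-05), where RIPOR2 was lower. Near SIX2, PREPL, a serine hydrolase, was lower in promoter vehicle by −0.32 ± 0.09 (adjusted p = 0.0308), and near C11orf87, EXPH5, an effector of vesicle transport, by −1.19 ± 0.34 (adjusted p = 0.0435), as their members were. Near PLEKHG4, PLA2G15, a lysosomal phospholipase, was higher in promoter vehicle by 0.97 ± 0.24 (adjusted p = 0.0193), the 1 gene called of 53 neighbours. The median over these 53 was 0.17 in vehicle, beside −0.0008 over all tested genes. In MPA it was −0.03, beside −0.02 over all tested genes. Near MARCHF3, LMNB1, the gene of lamin B1, was higher in promoter vehicle than in NT cells by 0.69 ± 0.10 (adjusted p = 0.000409) and than in U1U2 cells by 0.51 ± 0.10 (adjusted p = 0.0140), and GRAMD2B by 0.38 ± 0.10 (adjusted p = 0.0309) than in NT cells.

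**Figure D4:**
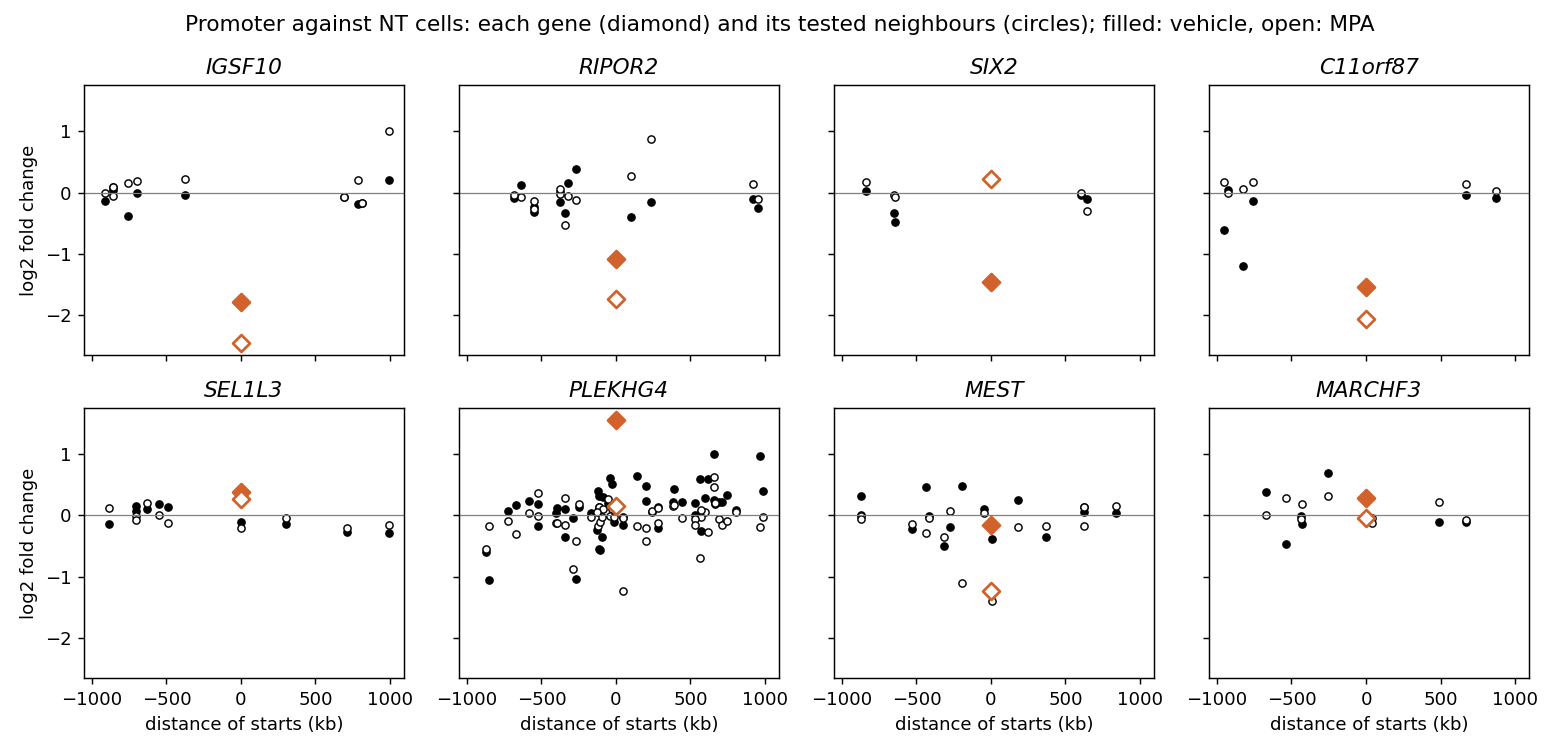
Log2 difference of promoter from NT cells (y axis) against the distance between gene starts in kb (x axis) for each of the 8 genes (orange diamonds) and the tested genes within 1 Mb (circles); filled symbols are vehicle, open symbols MPA. IGSF10, RIPOR2 and C11orf87 lie below every neighbour in MPA, and CPA4 lies beside MEST at −1.11 in MPA.

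MEST lies in an imprinted cluster of chromosome 7, and a neighbour in it, CPA4, a carboxypeptidase gene 193 kb upstream, moved the same way. CPA4 averaged 11.3 CPM in NT vehicle and 3.47 in NT MPA, 18 and 2.74 in U1U2 cells, and 15.9 and 1.62 in promoter cells. It fell with MPA in each line, by −1.69 ± 0.19 in NT (adjusted p = 8.12e-06), −2.73 ± 0.19 in U1U2 (1.07e-08) and −3.28 ± 0.20 in promoter cells (1.58e-09). The response in promoter cells was stronger than in NT cells by −1.59 ± 0.27 (adjusted p = 0.00426), and CPA4 was lower in promoter than in NT cells in MPA by −1.11 ± 0.21 (adjusted p = 0.00320). MESTIT1 fell in U1U2 cells by 1.64 ± 0.41 (adjusted p = 0.0130), at 0.82 CPM in vehicle and 0.27 in MPA. COPG2 did not pass the test, with responses of 0.28, −0.22 and −0.16 (adjusted p = 0.434, 0.476 and 0.577).

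Relatives of the members were examined from lists of the homeobox relatives of SIX2 with the EYA and DACH factors, the RIPOR proteins with the RHOA, RHOB and RHOC GTPases, and the PLEKHG, MARCHF, SEL1L and IGSF genes, of which 24 besides the members were tested. With MPA, 1 of the 24 changed in NT, 3 in U1U2 and 2 in promoter cells, all upwards, at 4.17%, 12.5% and 8.33% beside the shares over all genes given above. DACH2, a cofactor of SIX2 and its relatives, rose by 0.63 ± 0.19 in U1U2 cells (adjusted p = 0.0342) and by 1.10 ± 0.19 in promoter cells (adjusted p = 0.000377), and was 1.48 CPM in promoter vehicle and 3.10 in promoter MPA. In MPA it was higher than in NT cells by 0.97 ± 0.20 in U1U2 cells (adjusted p = 0.0128) and by 1.32 ± 0.19 in promoter cells (adjusted p = 0.000287), and in vehicle no pair of lines passed the test. The 3 differences between lines in its MPA response did not pass either (adjusted p = 0.524, 0.108 and 1.00). MARCHF10 rose by 1.46 ± 0.40, 2.6 ± 0.41 and 1.86 ± 0.42 in NT, U1U2 and promoter cells (adjusted p = 0.0361, 0.000230 and 0.00414), from 19, 14 and 17 counts summed over 3 vehicle libraries to 75, 77 and 58. RHOB, a GTPase of the same group as RHOA, rose in U1U2 cells by 0.31 ± 0.10 (adjusted p = 0.0481) and was lower there than in NT cells in vehicle by −0.43 ± 0.10 (adjusted p = 0.0431). No tested PLEKHG relative (4), SEL1L or IGSF8, the tested gene of each of the last 2 families, was called in any of the 12 comparisons.

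The genes whose log2 CPM went most alike with each member over the 18 libraries were taken by Pearson's r, from 10973 tested genes whose mean log2 CPM reached 1. Genes without a symbol and those with clone-based or LINC names were left out of these. These values are a description, since the points share lines, media and libraries. The member with the closest partner was MEST, with KIT, a receptor tyrosine kinase, at 0.991, LRRC17 at 0.988 and NRG1, a ligand of ERBB receptors, at 0.987. KIT averaged 119 CPM in NT vehicle and 46.9 in NT MPA, 136 and 29.3 in U1U2 cells and 105 and 16.6 in promoter cells. RIPOR2 was most like ADGRL3, an adhesion receptor, at 0.983, SIPA1L2 at 0.980 and LRRN4CL at 0.979. IGSF10 was most like EMX2OS, the antisense RNA of EMX2, at 0.970, C11orf87 at 0.969 and IL6R, the interleukin 6 receptor, at 0.951, so 2 of the 8 members were in each other's nearest 3. C11orf87 was in turn most like IGSF10, SMPDL3A (0.951) and TFPI, the inhibitor of the tissue factor pathway (0.948).

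SIX2 was most like SPRY1, a Sprouty inhibitor of receptor tyrosine kinase signalling, at 0.966, ADGRB3 at 0.960 and MOB3B at 0.958. SPRY1 averaged 4.43, 2.39 and 1.37 CPM in NT, U1U2 and promoter vehicle and 4.69, 5.02 and 5.97 CPM in MPA, the same order of lines as SIX2 in vehicle. PLEKHG4 was most like SEC23B, a coat protein of secretory vesicles, at 0.913, DDX39A at 0.905 and MCM3, a subunit of the replicative helicase, at 0.904. SEL1L3 and MARCHF3 had weaker partners, with DYNC1H1, the dynein heavy chain, at 0.846 and STEAP2, a metalloreductase, at 0.788 as their first. Among the members themselves, r over the 28 pairs ran from −0.749 for SIX2 with MEST to 0.969 for IGSF10 with C11orf87, and RIPOR2 with MEST was at 0.934.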

How the data were processed

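The authors deposited whole-number read counts per gene for 18 libraries, the values tested here, and a table of log2 CPM values, which held all 8 genes among 10402. The largest difference between that log2 table and values computed here for the 8 genes was 0.0351, and the table entered no test. The submitters' processing notes list STAR 2.6.0c, edgeR 4.2.2, R 4.4.1 and hg38, with no roles; the counter, its strand setting and annotation are not given in the sources used here.

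Counts were fitted with edgeR 4.0.16 (R 4.3.3), with filterByExpr (minimum count 10, 15558 genes), TMM factors and 1 term per group over all libraries (common biological coefficient of variation 0.129). Each of 12 contrasts was tested by quasi-likelihood, adjusted by Benjamini-Hochberg over all tested genes and called at an adjusted p under 0.05; CPM values use TMM factors, and log2 CPM adds a prior count of 2. Positions are from GENCODE 29 (94.5% of tested genes matched). Every pair of replicates differed by more than sampling noise (chi-square per degree of freedom 1.90 to 33.2), so each was counted.

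The members and gene lists were chosen with earlier results of these data known. Named genes were the 8 members, PGR, list members, at most 3 called neighbours per member and the 3 genes most alike with each member. DESeq2 1.42.0, RLE factors, no filter, only the groups compared, a replicate term and leaving out each library were alternatives.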

Additional observations from a re-analysis of the deposited data

Results flagged for a closer look

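These 3 differences of MPA responses had an adjusted p under 0.05 in edgeR's fit over all genes, which is why they are set apart here. Each is a line difference in MPA minus that in vehicle, and such line differences chose the genes, so the values are a description and support nothing. The response of SIX2 differed between promoter and NT cells by 1.67 (log2), between 1.48 and 1.81 over the 23 alternatives. The response of MEST differed between promoter and NT cells by −1.08, between −1.12 and −0.995. The response of MEST in U1U2 cells differed from that in NT cells by −0.77, between −0.91 and −0.66. For this last difference the adjusted p was not under 0.05 in 17 of the 23 alternatives. The first 2 stayed under 0.05 in all 23. Each of the 3 differences rests on 3 libraries per group, and all 3 share the NT libraries.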

How the results depend on the processing

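Over 23 alternatives each, 543 of 552 MPA responses and 519 of 552 differences of responses of the 8 genes kept their direction and their side of the threshold. Of the line differences, 1100 of 1104 moved by less than the spread of replicates. That rule does not ask for the same sign, and small line differences whose sign turned are listed below. The number of members with a called difference of responses between U1U2 and NT cells, 1, became 2 without the filter on low counts, 2 with DESeq2, 0 with the replicate block and 0 with only the groups compared, and ran from 0 to 1 when 1 library was left out. When 1 library was left out, signs turned for the difference of responses between promoter and U1U2 cells for C11orf87 (−0.11 to 0.13), and for the NT responses of SEL1L3 (−0.022 to 0.066) and MARCHF3 (−0.20 to 0.023), both without NT MPA replicate 3. They also turned for line differences of MEST (U1U2 from NT cells in vehicle, −0.070 to 0.029, and 0.013 without the filter), PLEKHG4 in MPA (U1U2 from NT cells, −0.30 to 0.18, and promoter from NT cells, −0.0052 to 0.37), MARCHF3 (promoter from NT cells in MPA, −0.14 to 0.079) and RIPOR2 (promoter from U1U2 cells in MPA, −0.00054 to 0.26). Without U1U2 MPA replicate 1, the MPA difference of MEST from NT cells was −0.94 in U1U2 cells, and that of promoter from U1U2 cells −0.30. Over all genes, calls for the differences of responses (U1U2 minus NT, promoter minus NT, promoter minus U1U2) were 34, 242 and 2, against 281, 758 and 18 without the filter, 115, 468 and 57 with DESeq2 and 12, 150 and 0 with the replicate block. In vehicle, calls between U1U2 and NT cells were 178, against 808 without the filter, 451 with DESeq2, 4 with only the groups compared and 23 to 639 when 1 library was left out. With only the groups compared, MPA calls went from 922 to 491 in NT, from 1814 to 1049 in U1U2 and from 2339 to 2839 in promoter cells. Same-numbered replicates did not consistently deviate together (r from −0.52 to 0.50 over 45 pairs, 13 above 0.1, best match with the own number in 20 of 90). No pairing by number was seen, but with 3 libraries per group this check cannot exclude one. In edgeR, the replicate block gave the MPA response of PLEKHG4 in promoter cells an adjusted p of 0.0655. RIPOR2, SIX2, PLEKHG4 and IGSF10 had the lowest counts of the 8 genes.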

Other observations

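Other imprinted genes were listed beside MEST, and 22 of them were tested. In vehicle, IGF2, the gene of insulin-like growth factor 2, averaged 48.1 CPM in NT, 13.6 in U1U2 and 11.5 in promoter cells. It was lower by −1.82 ± 0.27 in U1U2 cells (adjusted p = 0.00295) and by −2.05 ± 0.27 in promoter cells (adjusted p = 0.000247), and it rose with MPA in promoter cells by 0.92 ± 0.27 (adjusted p = 0.0251) to 21.9 CPM. H19, the noncoding RNA next to IGF2, rose with MPA by 1.93 ± 0.54 in U1U2 cells (adjusted p = 0.0234) and by 2.93 ± 0.61 in promoter cells (adjusted p = 0.00241), from 12 and 6 counts over 3 vehicle libraries to 41 and 43. CDKN1C, a cell cycle inhibitor, was lower in promoter than in NT vehicle by −1.23 ± 0.24 (adjusted p = 0.00387), and SGCE, a sarcoglycan gene, by −0.38 ± 0.07 (adjusted p = 0.00335). KCNQ1OT1 rose with MPA in promoter cells by 0.88 ± 0.27 (adjusted p = 0.0331).

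Over the 22 genes besides MEST, 1, 3 and 4 passed the test of the MPA response in NT, U1U2 and promoter cells (4.55%, 13.6% and 18.2%, near the 5.93%, 11.7% and 15% of all tested genes). In vehicle, 1 and 3 passed that of U1U2 and promoter against NT cells (4.55% and 13.6%, beside 1.14% and 6.75% of all tested genes). In MPA the numbers were 0 and 2 (0% and 9.09%, beside 1.72% and 4.15% of all tested genes). Where 0 passed, 3 of the 22 had an unadjusted p under 0.05 in edgeR, and DESeq2 called 1. Their median MPA response was −0.10 in NT, −0.0044 in U1U2 and −0.10 in promoter cells. The list thus held members that rose and members that fell. Adjusted p-values are from edgeR's quasi-likelihood test.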
